A study of Glycine max with 6 samples.

Results

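The genes described here are WRKY transcription factor genes of soybean (Glycine max), chosen by name. They were followed through the leaf transcriptomes of the genotypes HN44 and SN14, with 3 libraries each. A gene was taken when its NCBI gene number carries a soybean symbol or synonym made of WRKY and a number, with or without the prefix Gm. There are 62 such genes in RefSeq, of which 61 are among the 41759 genes the authors deposited. WRKY64 was not analysed here. WRKY genes without a numbered name were not taken, so these 61 need not be all WRKY genes of soybean. In the values below, WRKY genes, members and the family mean these 61 alone. Both genotypes grew in a field at Harbin, with no treatment named, and the series contrasts them for water use efficiency without saying which is the more efficient. Plant age and sampling time are not in the labels, nor is it stated that each library is a different plant. The p-values below therefore measure only the spread between the libraries, part of which may be technical. In leaf RNA, fewer cells of a type and less RNA per cell cannot be told apart.

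WRKY proteins are plant transcription factors named after a conserved stretch of amino acids that contacts DNA next to a zinc finger. They bind the W-box, a short promoter element, and many act downstream of mitogen-activated protein (MAP) kinases in immune responses, leaf senescence and responses to drought, salt or nutrient supply. Many WRKY promoters carry W-boxes themselves, so that members of the family can act on each other and on their own genes. A few soybean members have been studied by overexpression. A soybean factor numbered WRKY27 has been tied to tolerance of drought and salt, WRKY13 made Arabidopsis plants more sensitive to salt, WRKY54 raised their tolerance of drought and salt, and WRKY21 their tolerance of cold. Numbering differs between studies, and no role is given below for the other members.

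Levels are FPKM, fragments scaled to the length of the transcript and to all mapped fragments of the library, so they can be compared between genes. The number of reads behind a value is unknown. HN44-3 lies between the other HN44 libraries for most genes of the table, so it may not be an independent library. Among the 44 WRKY genes tested, it lay between them in 33 (75%, against 73.6% of all tested genes), and in 21 of the 24 whose HN44-1 and HN44-2 values of FPKM + 1 were at least 1.5-fold apart. Unless stated otherwise, the means of HN44 are therefore of HN44-1 and HN44-2 (n = 2) and those of SN14 of 3 libraries. Tests are given with and without HN44-3. Leaf genes were abundant: the summed level of the 7 rubisco small subunit and light-harvesting genes ran from 35530 to 56620 FPKM in HN44 and from 65970 to 77680 in SN14. In the limma fit described below, all 7 were lower in HN44, with a median log2 difference of -0.84. None passed the adjusted threshold, but 4 (57.1%) were lower at an unadjusted p under 0.05, against 8.59% of all tested genes. Whether this bears on the WRKY levels was not tested. Of 11 seed storage protein genes 1 was in the table, at 0.07 FPKM or less. The deposited values favour HN44 slightly: over all tested genes the median log2 difference, HN44 minus SN14, was 0.17. It was 0.02 once each library had been divided by its median ratio to the geometric mean of the libraries (median-of-ratios scaling).

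WRKY transcripts together were more abundant in every HN44 library than in any SN14 library. The 61 genes summed to 510.1 FPKM in HN44-1, 679.7 in HN44-2 and 594.5 in HN44-3, and to 201, 252 and 388 FPKM in SN14-1, SN14-2 and SN14-3. After median-of-ratios scaling the sums were 438, 691 and 544 in HN44 and 203, 264 and 433 in SN14, so that SN14-3 came close to HN44-1. The 5 members with the highest mean over the 6 libraries, WRKY27, WRKY57, WRKY49, WRKY39 and WRKY55, made up 41.1% to 47.6% of the sum in HN44. In SN14 they made up 19.5% to 29.6%. That mean includes the HN44 libraries, so a high HN44 level also helps to place a gene among the 5. Of the tested genes 3 had a mean of at least 30 FPKM over the 6 libraries, 11 a mean from 10 to 30, 9 from 5 to 10, and 21 less. At least 10 FPKM was reached by 14 to 18 members in an HN44 library, by 5 in SN14-1 and SN14-2, and by 15 in SN14-3.

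**Figure D1:**
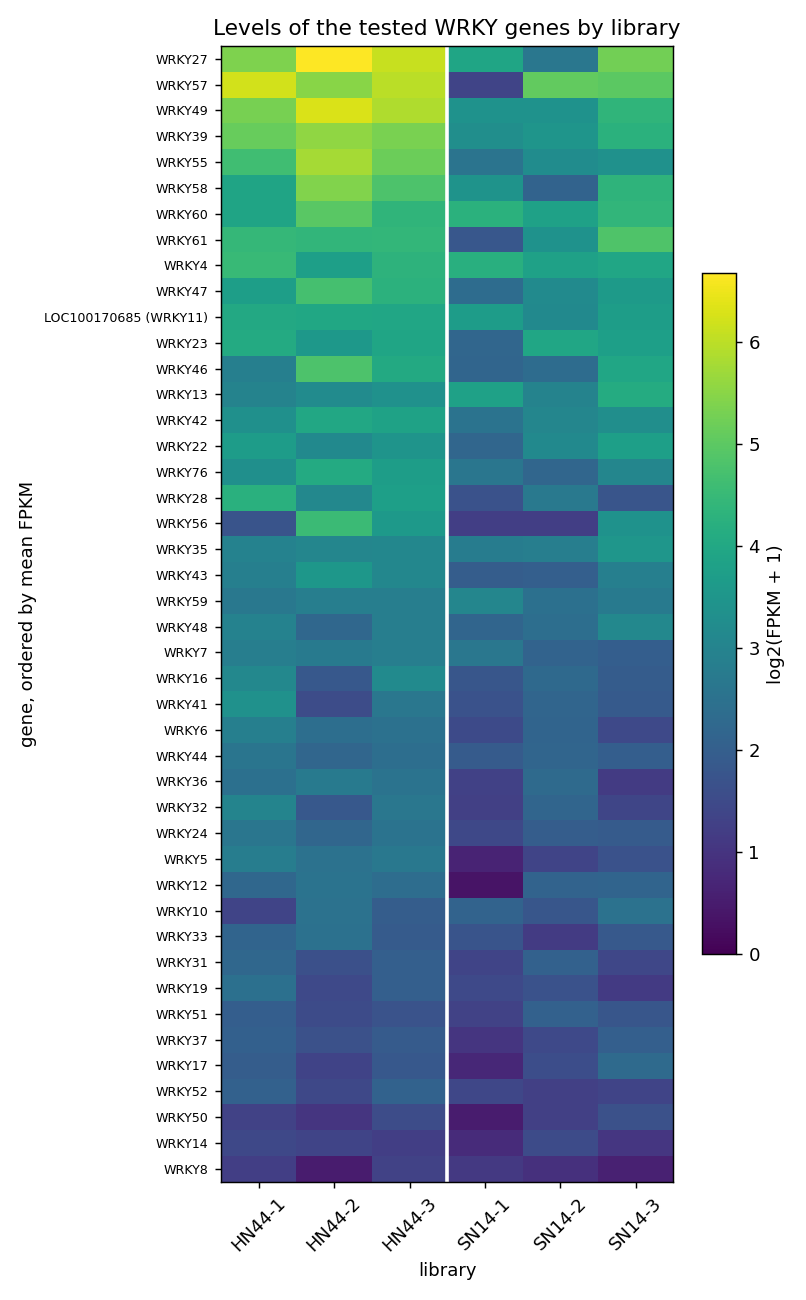
Heat map of the 44 tested WRKY genes (rows, ordered by their mean) in the 6 libraries (columns), coloured by log2(FPKM + 1). The rows at the top are brightest in the HN44 columns, and SN14-1 holds the darkest cell of 26 rows among the SN14 libraries.

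Genes that reached 1 FPKM in at least 3 libraries were compared between the genotypes with limma on log2(FPKM + 1), and p-values were adjusted over all 27140 genes that met this filter. With 6 libraries 4 of the 44 WRKY genes rose in HN44, WRKY55, WRKY49, WRKY39 and WRKY5, and none fell. This is 9.09% of the members, beside 2.33% of all tested genes that were higher and 1.44% that were lower in HN44. Without HN44-3 none of the 44 passed, where 0.387% of all tested genes were higher and 0.166% lower, and after median-of-ratios scaling none passed with 6 libraries. At an unadjusted p under 0.05 there were 18 members higher (40.9%, against 18.7% of all tested genes) and 0 lower (against 8.59%) with 6 libraries. The corresponding number without HN44-3 was 12 higher (27.3%, against 9.08%), and after scaling it was 10 (22.7%, against 12.1%).

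The shift towards HN44 ran through most of the family. The fitted difference was above 0 in 41 of 44 members, where 64% of all tested genes were above 0, and its median was 0.60 on the log2 scale. Without HN44-3 the median was 0.55 and 40 members were above 0; after scaling they were 0.46 and 38, where 51.6% of all genes were above 0. Every HN44 library was above every SN14 library in 20 of the 44 (45.5%, against 23.3% of all tested genes), and the reverse held in 0 (against 10.5%). The same 20 was the count with HN44-3 left aside, against 24.3% of all tested genes. After scaling the count was 10 (22.7%, against 16.8%), with 0 in the other direction (against 15.4%). These 10 were WRKY5, WRKY6, WRKY7, WRKY24, WRKY28, WRKY39, WRKY49, WRKY52, WRKY55 and WRKY57. Other genes described below as without overlap were so in the deposited values only. The 3 members of at least 30 FPKM had a median difference of 2.11, the 11 from 10 to 30 FPKM one of 1.08, the 9 from 5 to 10 FPKM one of 0.76, and the 21 below one of 0.56. The pseudocount of 1 shrinks the differences of low genes. The bands were cut by the mean over all 6 libraries, which a high HN44 level raises, so the rise across bands is partly built in. The same bands were not computed for all tested genes.

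**Figure D2:**
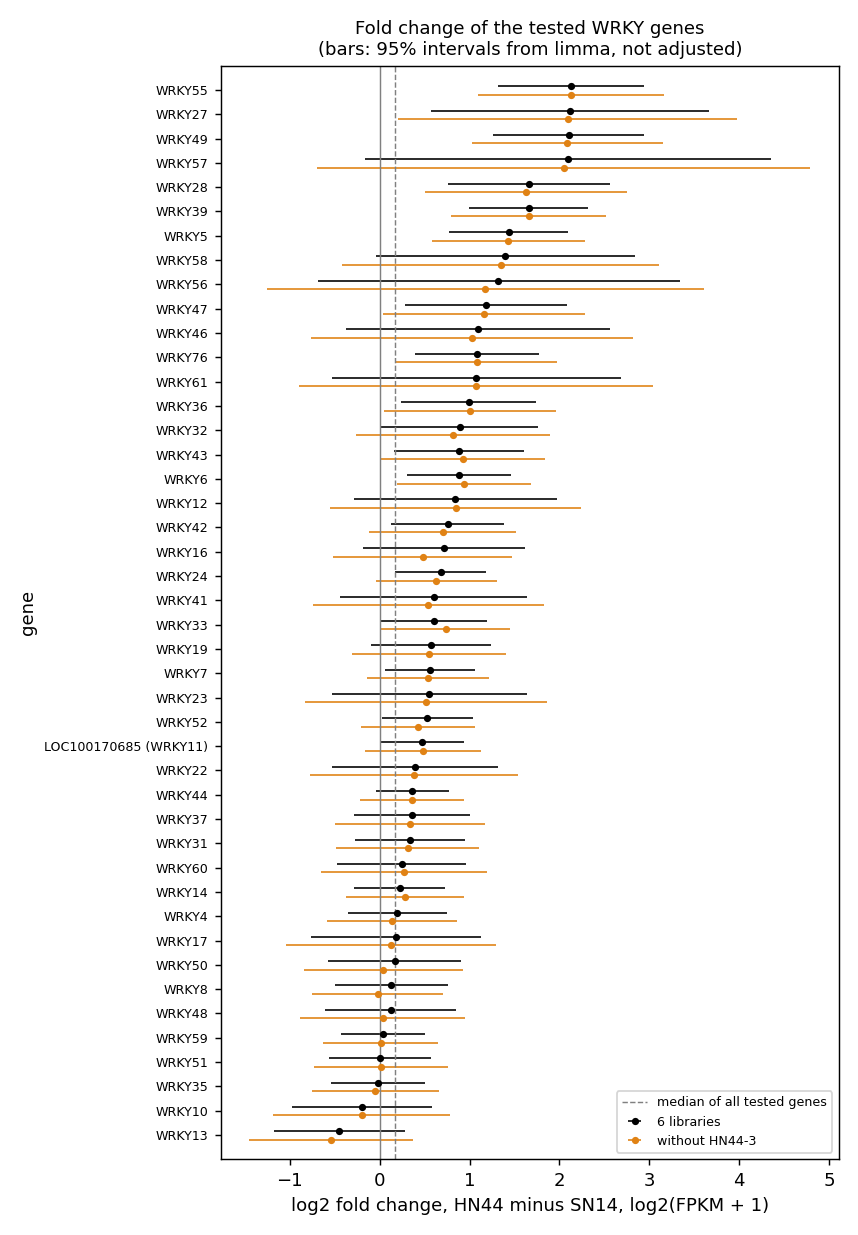
Log2 fold change (HN44 minus SN14, x axis) of each of the 44 tested WRKY genes (y axis) with its 95% interval from limma, not adjusted for multiple tests, with 6 libraries (black) and without HN44-3 (orange). Of the 44 points 41 lie above 0 with 6 libraries, and the intervals widen without HN44-3.

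WRKY55, on chromosome 7 (5100408 to 5103289, plus strand, in the authors' coordinates, whose build the sources used here do not give), had 23.6 FPKM in HN44-1, 53.7 in HN44-2 and 35.5 in HN44-3. The SN14 libraries, in the same order, had 4.98, 8.50 and 9.32 FPKM. All HN44 libraries were above all SN14 libraries, although HN44-2 was far above HN44-1. The log2 fold change was 2.13 ± 0.34 (SE; limma adjusted p = 0.0266, and 0.142 when HN44-3 was left out).

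WRKY49, on chromosome 14 (46522674 to 46526089, minus strand), had 38.8, 78.1 and 57.4 FPKM in the HN44 libraries and 9.64, 9.55 and 19.6 in those of SN14. The lowest HN44 library was thus above the highest of SN14, and SN14-3 stood apart from the other SN14 libraries. Its log2 fold change was 2.11 ± 0.36 (SE; limma adjusted p = 0.0299, and 0.158 without HN44-3). WRKY39, on chromosome 2 (42001355 to 42004790, minus strand), had 33.6, 46.4 and 39.6 FPKM in HN44 against 8.89, 10.2 and 18.2 in SN14. SN14-3 was again the highest SN14 library. The fold change was 1.66 ± 0.28 (SE), with adjusted p of 0.0303 and 0.168 by limma with and without HN44-3.

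WRKY5, on chromosome 1 (44021394 to 44024988, minus strand), was the least abundant of the genes that rose. It had 6.05, 4.75 and 5.39 FPKM in HN44 and 0.58, 1.58 and 2.22 in SN14, and here HN44-1, not HN44-2, was the highest library. Its log2 fold change was 1.43 ± 0.28 (SE; limma adjusted p = 0.0447, and 0.214 when HN44-3 was left out). With any other single library left out, between 1 and 3 WRKY genes passed, not always from these 4. WRKY55 passed without HN44-1 (limma adjusted p = 0.0399), HN44-2 (0.047) or SN14-2 (0.0481), but not without SN14-1 (0.0506) or SN14-3 (0.06). Of these omissions, WRKY49 and WRKY39 passed only in that of SN14-3 (0.0314 and 0.016). WRKY5 passed only in those of SN14-1 (0.0409) and SN14-3 (0.0495). The 4 genes that rose with 6 libraries had adjusted p from 0.0554 to 0.0656 after scaling, with fold changes of 1.95 for WRKY55, 1.92 for WRKY49, 1.48 for WRKY39 and 1.29 for WRKY5.

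**Figure D3:**
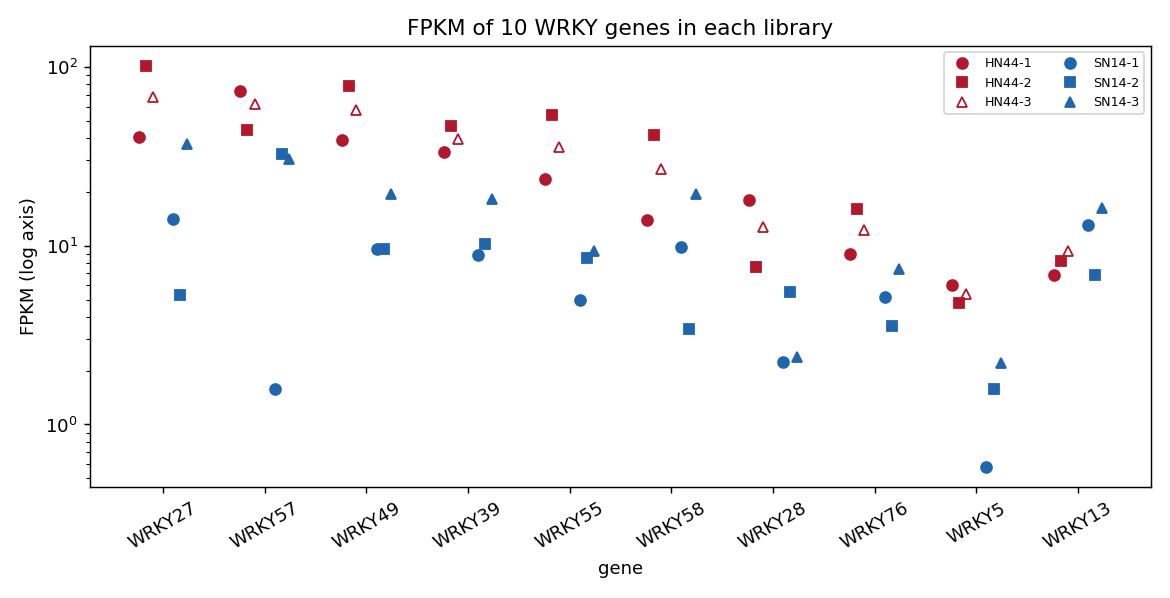
FPKM (log axis) of 10 WRKY genes in each library, HN44 in red and SN14 in blue, with circles for library 1, squares for library 2 and triangles for library 3 (open for HN44-3). WRKY55, WRKY49, WRKY39 and WRKY5 show no overlap between the genotypes, whereas WRKY13 and WRKY58 do.

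The other abundant members did not pass. WRKY27 (chromosome 15, 290660 to 292140) had the highest mean of the family, with 40.7, 101.2 and 68.0 FPKM in HN44 and 14.1, 5.29 and 37.0 in SN14. The genotypes did not overlap, but SN14-3 came close to HN44-1. Its log2 fold change was 2.12 ± 0.65 (SE; limma adjusted p = 0.107, and 0.328 without HN44-3). WRKY57 had 73.1, 44.1 and 62.1 FPKM in HN44 and 1.57, 32.5 and 30.6 in SN14. SN14-1 alone was far below the others: the log2 fold change of 2.09 ± 0.95 (SE; adjusted p = 0.208, 0.436 without HN44-3) became 0.87 without SN14-1 (adjusted p = 0.115).

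WRKY58 stood at 13.9, 41.6 and 27.0 FPKM in HN44 and at 9.83, 3.40 and 19.4 in SN14, so that SN14-3 was above HN44-1 (limma adjusted p = 0.192, 0.430 without HN44-3). WRKY61 was even across HN44, at 20.8, 20.1 and 20.5 FPKM, and spread over SN14, at 2.51, 9.60 and 27.5. Its fold change of 1.08 (adjusted p = 0.332, 0.543 without HN44-3) became 0.31 without SN14-1. WRKY47 had 12.4, 24.9 and 18.5 FPKM in HN44 and 4.13, 8.12 and 11.4 in SN14, without overlap (adjusted p = 0.115, 0.346 without HN44-3). WRKY60 and WRKY4 were abundant with overlapping genotypes. The mean of WRKY60 was 22.0 ± 11.4 FPKM over HN44-1 and HN44-2 (SD, n = 2) and 17.1 ± 3.66 over SN14 (SD, n = 3), and the 95% interval of its log2 difference ran from -0.47 to 0.96, or from -0.65 to 1.19 without HN44-3. For WRKY4 the means were 17.1 ± 6.27 and 15.01 ± 2.12 FPKM, with an interval from -0.35 to 0.75, or from -0.58 to 0.86 without HN44-3.

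Among less abundant members, WRKY28 came nearest to the threshold. It had 17.9, 7.62 and 12.7 FPKM in HN44 and 2.23, 5.50 and 2.37 in SN14, with the highest levels in HN44-1 and, within SN14, in SN14-2. The fold change was 1.66 ± 0.38 (SE; limma adjusted p = 0.0646, 0.258 without HN44-3), and it passed without SN14-2 (adjusted p = 0.0435). WRKY76 had 9, 16.1 and 12.2 against 5.15, 3.57 and 7.41 FPKM (adjusted p = 0.0845, 0.308 without HN44-3), and WRKY6 6.39, 4.32 and 4.61 against 1.84, 3.42 and 1.79 (adjusted p = 0.0871, 0.300 without HN44-3). In both the genotypes did not overlap. Among members with a mean of 5 FPKM or more, WRKY42, WRKY43 and LOC100170685, described below, also kept the genotypes apart. WRKY42 had 9.22, 15.03 and 13.3 FPKM in HN44 against 4.86, 7.42 and 8.91 in SN14 (limma adjusted p = 0.134, 0.393 without HN44-3). WRKY43 had 6.37, 10.7 and 7.55 against 2.90, 3.06 and 6.36 FPKM, so that SN14-3 reached to just under HN44-1 (adjusted p = 0.129, 0.354 without HN44-3). The difference between the genotype means of log2(FPKM + 1), here with HN44-3 included, was compared with the widest range within a genotype. It was larger in 8 members (18.2%, against 22.3% of all tested genes): the 4 that rose, WRKY28, WRKY76, WRKY6 and WRKY24.

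A single low SN14 library marked WRKY12 and WRKY23. WRKY12 had 3.70, 4.83 and 4.21 FPKM in HN44 and 0.28, 3.38 and 3.42 in SN14, with SN14-1 far below the others (difference 0.84, limma adjusted p = 0.288, 0.509 without HN44-3). WRKY23 had 16.0, 10.8 and 14.3 FPKM in HN44 and 3.63, 14.5 and 12.5 in SN14, where SN14-1 alone lay outside the HN44 range (adjusted p = 0.453, 0.662 without HN44-3). WRKY36 differed in another way, with 4.56, 5.58 and 4.82 FPKM in HN44 and 3.99 in SN14-2, but 1.46 in SN14-1 and 1.22 in SN14-3 (adjusted p = 0.115, 0.339 without HN44-3). WRKY22 spread over SN14, at 3.61, 8.01 and 12.5 FPKM, around 11.9, 8 and 10.1 in HN44 (adjusted p = 0.527, 0.705 without HN44-3). WRKY7, WRKY44, WRKY33 and WRKY52, all under 7 FPKM, were low genes without overlap, with differences from 0.36 to 0.60 and adjusted p from 0.149 to 0.223 (from 0.349 to 0.496 without HN44-3). WRKY8, WRKY14, WRKY17, WRKY19, WRKY31, WRKY37 and WRKY50 stayed under 5 FPKM in each library, with overlapping genotypes and adjusted p of 0.239 or more (0.487 or more without HN44-3).

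The fitted difference was below 0 in 3 members, none of which passed. WRKY13 had 6.88, 8.24 and 9.37 FPKM in HN44 and 13.1, 6.85 and 16.3 in SN14, with SN14-2 level with HN44-1; the difference was -0.45, with a 95% interval from -1.18 to 0.28, or from -1.45 to 0.37 without HN44-3. WRKY10 had 1.60, 4.73 and 2.88 against 3.37, 2.47 and 4.76 FPKM, and WRKY35 6.81, 7.32 and 7.59 against 6, 6.29 and 10.3. WRKY59, WRKY51 and WRKY48 were nearest to no difference from above, at 0.04, 0.01 and 0.12, and all 3 lay below 0 after scaling, at -0.12, -0.13 and -0.04.

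Libraries of the same genotype also differed in WRKY levels. On the scale of FPKM + 1, which narrows the gaps of low genes, HN44-1 and HN44-2 were at least 2-fold apart in 11 of 44 members (25%, against 9.69% of all tested genes), and on the same scale the SN14 libraries spanned at least 2-fold in 16 (36.4%, against 20.7%). The most frequent patterns across the libraries were these 2. In 17 (38.6%, against 11.5% of all tested genes) HN44-2 was above HN44-1 and SN14-3 was the highest SN14 library; WRKY27, WRKY49, WRKY39, WRKY55, WRKY58, WRKY46 and WRKY56 are of this kind. In 13 (29.5%, against 23.6%) HN44-1 was above HN44-2 and SN14-2 was the highest SN14 library, as in WRKY28, WRKY41, WRKY32, WRKY16, WRKY6 and WRKY57. A further 8 (18.2%, against 16.8%) had HN44-1 above HN44-2 and SN14-3 highest within SN14. The 29.5% and 18.2% lie near the shares of all tested genes, so they cannot be read as a trait of the members.

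WRKY56 and WRKY41 are the extremes along HN44. WRKY56 stood at 2.30, 22.5 and 11.02 FPKM in HN44 and at 1.38, 1.35 and 9.66 in SN14, so that HN44-1 was close to SN14-1 and SN14-2 while HN44-2 was highest of all. WRKY41 went the other way, with 9.33, 1.93 and 5.24 FPKM in HN44 and 2.23, 3.52 and 2.71 in SN14. Across the 44 genes the difference of HN44-2 from HN44-1 and that of SN14-3 from SN14-2, which share no library, had a Pearson correlation of 0.71 (Spearman 0.68), and across all 27140 tested genes of 0.36 (Spearman 0.31). These are descriptions across genes, which are not independent replicates. This pair of differences was not among the comparisons planned beforehand, so no weight is put on the size of the correlation. SN14-1 was the lowest SN14 library in 26 of the 44 members (59.1%, against 30.7% of all tested genes). The light-harvesting and rubisco genes summed to 35530 FPKM in HN44-1 and 56620 in HN44-2, and to 73800 in SN14-2 and 65970 in SN14-3. Their sum was thus higher in HN44-2 than in HN44-1, and lower in SN14-3 than in SN14-2. The fall within SN14 was that of the rubisco genes, mainly RBCS2, at 20478 FPKM in SN14-2 and 10661 in SN14-3. Every light-harvesting gene was instead higher in SN14-3 than in SN14-2, as was CAB3 at 6664 against 5738 FPKM. The part of these genes in the WRKY pattern was not tested.

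**Figure D4:**
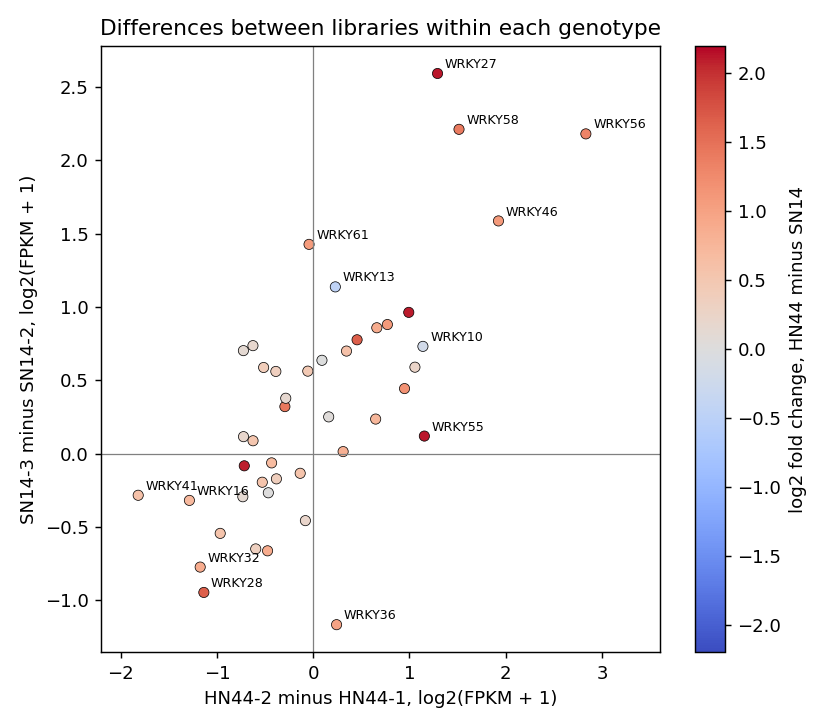
Each point is a tested WRKY gene, placed by HN44-2 minus HN44-1 (x axis) and SN14-3 minus SN14-2 (y axis), both on log2(FPKM + 1), and coloured by HN44 minus SN14. WRKY27, WRKY58, WRKY56 and WRKY46 lie far to the upper right and WRKY28 and WRKY32 to the lower left, and red points (higher in HN44) occur in both corners.

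The other 17 members did not reach 1 FPKM in 3 libraries and were not tested. Their highest value in any library was 1.25 FPKM, in WRKY53 in HN44-3. WRKY8 was the member just inside the filter, with 1.34, 0.41 and 1.49 FPKM in HN44 and 1.15, 0.89 and 0.54 in SN14. WRKY53, with 1.19, 0.13 and 1.25 against 0.67, 0.93 and 0.54 FPKM, and WRKY54, with 1.07, 0.61 and 1.22 against 0.20, 0.82 and 0.63, were just outside it. WRKY9 had 1.17, 0.80 and 0.91 FPKM in HN44 and 0.51, 0.90 and 0.25 in SN14. Of the 17 genes 9 were listed at 0 in at least 1 library and 5 had a mean under 0.1 FPKM. WRKY21 was among the low ones, at 0 to 0.25 FPKM in HN44 and 0 to 0.38 in SN14. In 0 of the 17 did the genotypes stand apart without overlap. The share over all untested genes was not computed, so this count cannot be read as a trait of the members.

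The 61 members lay on 19 of the 20 chromosomes, with 8 on chromosome 8 and none on chromosome 20. WRKY genes without a numbered name were not placed, so this is not a map of all soybean WRKY genes. There were 4 pairs of neighbouring members within 100 kb. On chromosome 8, WRKY6 and WRKY40 are 95.1 kb apart with 8 genes between; WRKY6 had a mean of 3.73 FPKM, and WRKY40 at most 0.39 FPKM in any library. On chromosome 3, WRKY41 and WRKY51 are 68.6 kb apart with 9 genes between. Both were expressed, WRKY51 at 2.95, 1.86 and 2.27 FPKM in HN44 and 1.5, 3.19 and 2.48 in SN14, and both had HN44-1 above HN44-2 and their highest SN14 level in SN14-2. The pairs WRKY45 and WRKY21 on chromosome 4, 24.5 kb apart, and WRKY30 and WRKY63 on chromosome 17, 25.5 kb apart, were below the filter. WRKY43 overlaps LOC100778475 on the other strand, which had a mean of 21.6 FPKM in HN44, here with HN44-3 included, and 4.81 in SN14. No source used here says whether the counting used strand, so reads of this pair cannot be told apart. Many soybean genes have a close copy elsewhere in the genome, and how reads were shared between such copies was not tested.

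LOC100170685, listed with the synonyms WRKY11 and WRKY15a, had 15.4, 14.8 and 14.6 FPKM in HN44 and 11.9, 7.96 and 12.2 in SN14, without overlap (limma adjusted p = 0.182, 0.433 without HN44-3). LOC100784158 and LOC100805895 carry the synonym WRKY without a number and were not counted as members. LOC100805895 had 19.7, 176 and 83.5 FPKM in HN44 and 15.4, 9.98 and 62.4 in SN14, so that SN14-3 was above HN44-1. HN44-2 and SN14-3 were again highest in their genotypes (limma adjusted p = 0.294, 0.543 without HN44-3). Its 176 FPKM in HN44-2 exceeded the 101.2 FPKM there of WRKY27, the member with the highest mean.

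Genes that work with WRKY factors were read from the same fit, in which 27.3% of all tested genes had an unadjusted p under 0.05 in either direction and the median log2 difference was 0.17. Of 7 MAP kinase and kinase kinase genes, which act upstream of WRKY proteins, none passed, with a median log2 difference of 0.33. At an unadjusted p below 0.05 there were 2 (28.6%), both higher in HN44. Of 17 tested genes for salicylate synthesis and immune regulation none passed, with a median difference of 0.40. At an unadjusted p below 0.05 there were 5 (29.4%), of which 4 were higher and 1 lower in HN44. Both shares are near that of all genes in either direction. The difference was above 0 in 6 of the 7 kinase genes and 15 of the 17 others, against 64% of all tested genes. The smallest p among the 17 was that of ICS1, the 1 lower at that unadjusted p. It encodes isochorismate synthase, an enzyme of salicylate synthesis. ICS1 had 0.57, 1.60 and 1.00 FPKM in HN44 and 3.99, 2.24 and 3.40 in SN14 (limma adjusted p = 0.0718, 0.287 without HN44-3). Its HN44 libraries were all below those of SN14, unlike any tested WRKY gene.

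Of 7 tested pathogenesis-related and chitinase genes, common outputs of defence signalling, limma called none, with 1 (14.3%) at an unadjusted p below 0.05 and a median of 0.30. PR-10 had the smallest p, at 18.4, 8.36 and 12.8 against 0.58, 7.03 and 5.51 FPKM (adjusted p = 0.153, 0.381 without HN44-3). PR1-8 differed most within a genotype, at 5.32, 6.4 and 5.85 FPKM in HN44 and 2.28, 222 and 522 in SN14 (adjusted p = 0.246, 0.464 without HN44-3). Of 23 tested isoflavonoid genes, whose products include soybean phytoalexins, 1 rose (4.35%, against 2.33% of all tested genes) and none fell, and the median was -0.08. At an unadjusted p below 0.05 there were 6 (26.1%), of which 2 were higher and 4 lower in HN44. The gene that rose was CHR3, for a chalcone reductase, at 146, 115 and 126 FPKM in HN44 and 41.8, 61.4 and 58.2 in SN14 (adjusted p = 0.0271, and 0.171 without HN44-3). No soybean gene matched by name as a VQ protein, a class of WRKY partners.

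The genes with a symbol or synonym whose levels followed WRKY49 most closely over the 6 libraries were, by Pearson correlation of log2(FPKM + 1), WRKY39 (0.992), NAC22 (0.987), SNAC38 (0.979), WRKY55 (0.973) and WRKY76 (0.972), out of 1594. For WRKY55 they were WRKY49 (0.973), BZIP38 (0.972), NAC22 (0.970), WRKY39 (0.965) and MYB52 (0.964). All of these encode transcription factors by their names. The share of transcription factors among the 1594 candidates was not counted, so this cannot be read as a trait of the genes that follow WRKY49 or WRKY55. NAC22 had 11.7, 16.8 and 13.6 FPKM in HN44 and 6.87, 6.21 and 7.73 in SN14. The correlations rest on 6 libraries in which HN44-3 may not be independent, and they include the difference between the genotypes.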

How the data were processed

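For the 6 leaf libraries the authors deposited gene-level FPKM, per the file headers. RSEM 1.2.12, Bowtie2 2.2.5, HISAT2 2.0.4 and DESeq2 1.4.5 appear, without a role, in the submitters' processing notes; a genome build was not given in the sources used here. Reads per gene were not recovered, since transcript lengths were not used here, so the depth of each library is unknown. Symbols, synonyms and chromosome numbers came from RefSeq (assembly Glycine_max_v4.0), coordinates from the authors' table.

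Over all genes that reached 1 FPKM in 3 or more libraries, limma 3.58.1 with a variance trend (R 4.3.3) was run on log2(FPKM + 1), HN44 minus SN14, without covariates, with Benjamini-Hochberg adjustment and a threshold of 0.05. The code was tested on simulated data. Fold changes on this scale understate those of low genes.

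The members and lists were chosen with earlier results of these data known. Members named are those past the threshold, the 10 most abundant tested, the 6 with the largest fitted difference in each direction and the 3 most abundant untested; others were named after their values were seen. Symbols of the form CHI and a number were counted as chalcone isomerases, in the isoflavonoid list alone. The comparisons of protein and promoter sequences that were planned could not be made and are not reported here. A gene that the naming rule selects from the related lists is not reported here. Alternatives were other pseudocounts, filters and scalings, a replicate block, robust moderation and leaving out each library.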

Additional observations from a re-analysis of the deposited data

How the results depend on the processing

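Of the WRKY genes, 4 were higher in HN44 with 6 libraries. The count was 0 with median-of-ratios scaling, 0 with HN44-3 left out and the filter applied again, 1 with a replicate block, and 0 to 3 when each library was left out on the same genes (0 without HN44-3, 1 without HN44-1, 1 without SN14-1 and 2 without HN44-2). It was 3 or 4 with a pseudocount of 0.1, no filter, at least 5 FPKM in 3 libraries, quantile normalization or robust moderation. The count of members lower in HN44 was 0 in each of these fits. The median of the members was above 0 in all of them, from 0.36 without a filter to 0.98 with at least 5 FPKM in 3 libraries, where 24 members were tested.

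Over all genes 1025 passed with 6 libraries, 174 with a replicate block, 15 with HN44-3 left out and the filter applied again, and 150 to 961 when each library was left out. The share of calls that were higher in HN44 was 61.8% as deposited, 47.6% with median-of-ratios scaling and 49.6% with quantile normalization. The isoflavonoid list had 1 gene past the threshold, 2 with median-of-ratios scaling and with quantile normalization, 0 with the replicate block, 0 with HN44-3 left out and the filter applied again, and 0 to 1 without each library. The pathogenesis-related list had 0, and 0 to 1 without each library.

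The alternatives were followed gene by gene for 18 members, and those whose direction turned had a fitted log2 difference no further from 0 than the 0.245 of WRKY60. Among the other tested members, WRKY8 turned from 0.131 to -0.021 without HN44-3. With median-of-ratios scaling WRKY48, WRKY51 and WRKY59 had -0.041, -0.13 and -0.117, and with quantile normalization -0.043, -0.15 and -0.127. With each library left out in turn, the difference ran from -0.482 to 0.088 for WRKY10, from -0.142 to 0.205 for WRKY35, from -0.073 to 0.395 for WRKY48, from -0.197 to 0.175 for WRKY51, from -0.099 to 0.2 for WRKY59 and from -0.031 to 0.498 for WRKY60. The causes were not tested. The labels name no pairing of libraries by replicate number. Deviations of same-numbered libraries correlated at -0.22, -0.44 and 0.03. Deviations within a genotype depend on each other, so these values cannot show whether such libraries were paired. With the replicate block WRKY55 had an adjusted p of 0.0462 and the other 3 genes from 0.0975 to 0.148. Each fit but those without HN44-3 treats that library as a separate replicate, so its p-values may be too small.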
